A study of Mus musculus with 55 samples.

Results

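The proteasome genes described here are the mouse genes whose symbol is Psm, a letter from a to g and a digit, which are the subunits of the proteasome together with its activators, its inhibitor and its assembly chaperones. Among 18194 genes that the array measures with at least 1 unshared probe set, 49 matched by symbol, and 43 of these were above a signal of 20 on the linear scale in at least 3 of 55 arrays and were among the 8238 genes tested. The 6 genes left out by that minimum were Psma8, Psmb9, Psmb11, Psmg3, Psmg4 and Psmc3ip. Psmc3ip, a meiotic recombination cofactor, and Psme3ip1, a partner of an activator, match by their letters only, so that 42 of the 43 tested genes encode the proteasome or its direct helpers. Where a gene had several probe sets, the brightest on average was used.

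The proteasome is the barrel-shaped protease that degrades proteins tagged with ubiquitin. Its core particle (20S) is built from outer rings of alpha subunits (Psma genes), which form the gate, and inner rings of beta subunits (Psmb genes), of which Psmb5, Psmb6 and Psmb7 carry the protease sites. The regulatory particle (19S) holds a ring of ATPases (Psmc genes), which unfold and feed in the substrate, and further subunits (Psmd genes), which bind and remove ubiquitin. Interferon replaces the catalytic subunits by Psmb8, Psmb9 and Psmb10 to form the immunoproteasome, which cuts peptides for display on MHC class I, and Psme1 and Psme2 form the interferon-inducible activator PA28. In heart muscle, where cells are rarely replaced, the proteasome clears damaged and misfolded contractile proteins.

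The hearts came from male mice of strain Sv129, either wild type (129S1/SvImJ, 25 hearts) or PPARα-/- (129S4/SvJae, 30 hearts, called knockout below), which lack the nuclear receptor through which fatty acids and fibrates induce fat-burning genes. Since the genotypes are different substrains, the effect of the deletion and that of the substrain cannot be told apart. All mice ate a purified diet with olive oil as a run-in, were fasted for 4 h, received 400 µL by gavage and were killed 6 h later. Their age is given both as 9 to 12 weeks and as 2 to 6 months. The gavages were triolein, trilinolein, trilinolenin and tridocosahexaenoin, which are triglycerides of 1 fatty acid each (oleic, linoleic, linolenic and docosahexaenoic acid), the synthetic PPARα agonist Wy14643 (10 mg/mL in 0.5% carboxymethyl cellulose) or a control. The control is the cellulose vehicle in the treatment protocol and is labelled as no treatment elsewhere. Wild-type hearts numbered 3 (control), 4 (triolein), 5 (trilinolein), 4 (trilinolenin), 5 (tridocosahexaenoin) and 4 (Wy14643), and knockout hearts 5 in every gavage group. The number of arrays limits the precision of every value, and p-values measure the spread between these arrays.

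The values are log2 signals of whole-heart RNA on Affymetrix arrays, and differences are in log2 units, with the standard error (SE) of the fit. In whole hearts, fewer cells of a type and less RNA per cell cannot be told apart. Ppara itself was between 7.38 and 8.59 in wild-type arrays (median 8.04) and between 6.93 and 7.61 in knockout arrays (median 7.34), a difference of -0.77 ± 0.05. These values are from the brightest of 3 probe sets of Ppara. Whether that probe set lies in the deleted part was not analysed here. Correlations between whole arrays were 0.988 to 0.996.

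Proteasome genes were steady from heart to heart. The median SD within a group was 0.0824 for the 43 members and 0.167 for all 8238 tested genes. The median range of a gene's 12 group means was 0.170 for the members and 0.343 for all genes. The members were also bright (median level 9.80, against 7.05 over all genes). Whether their level accounts for their smaller spread was not tested. The widest ranges of group means among tested members were those of Psmb8 (0.77), Psmd9 (0.56), Psmb10 (0.44) and Psme4 (0.37). The narrowest were those of the ATPases Psmc5 and Psmc3, at 0.0915 and 0.0945.

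**Figure D1:**
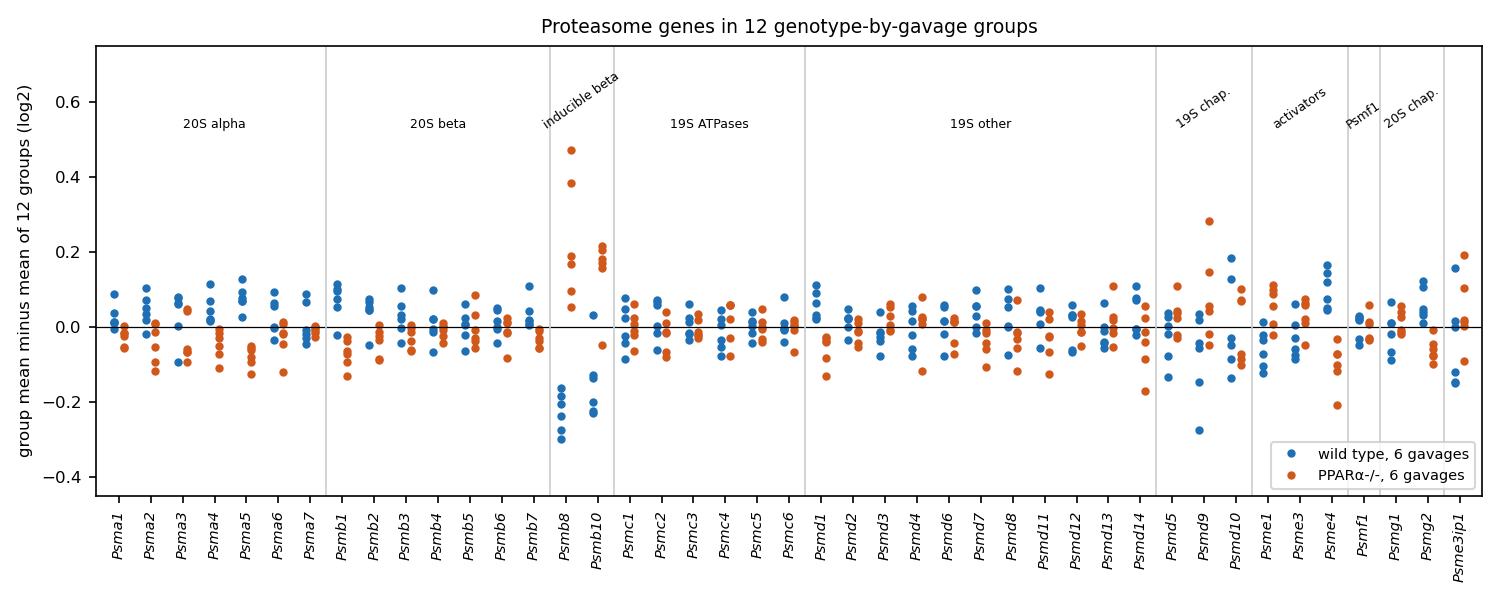
Mean log2 signal of each tested member in each of the 12 groups, as the distance from the mean of that gene's 12 group means, ordered by role (chap., assembly chaperones). Blue points are the 6 wild-type groups and orange points the 6 knockout groups. The points of most members lie within 0.2 of 0, while the 6 wild-type points of Psmb8 all lie below its 6 knockout points.

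The members also varied together to a small degree. After each gene's group means were removed, the median correlation between pairs of members over the 55 arrays was 0.143, with 75.3% of 903 pairs above 0. For pairs of all tested genes the median was 0.0289, with 55.7% above 0. The median was 0.313 among the alpha subunits, where all 21 pairs were above 0, 0.212 among the constitutive beta subunits, 0.222 among the ATPases and 0.279 among the other 19S subunits. The closest pair was Psmc1, an ATPase, with Psmd7, a scaffold subunit of the lid, at 0.65. These correlations share the arrays and their normalisation, and they are given as a description.

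The comparison of genotypes asked how the hearts without PPARα differed from wild-type hearts, and was taken as knockout minus wild type, averaged over the 6 gavages. Several subunits of the core particle were slightly lower in knockout hearts, and the immunoproteasome subunits that could be tested were higher. At an adjusted p under 0.05 in limma, 13 of 43 members were lower in knockout hearts and 4 were higher, and 26 passed in neither direction. Among all tested genes, 16.1% were lower and 22.9% were higher, or 39% in either direction. The members' 17 calls (39.5%) were therefore at the background rate in total, while 30.2% of the members were called lower and 9.30% higher. The median difference was -0.02 for the members and 0.02 for all genes, and 30.2% of members against 56.1% of all genes lay above 0. The changes were small, since the 13 lower members were 3.64% to 12.9% below wild type on the linear scale.

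**Figure D2:**
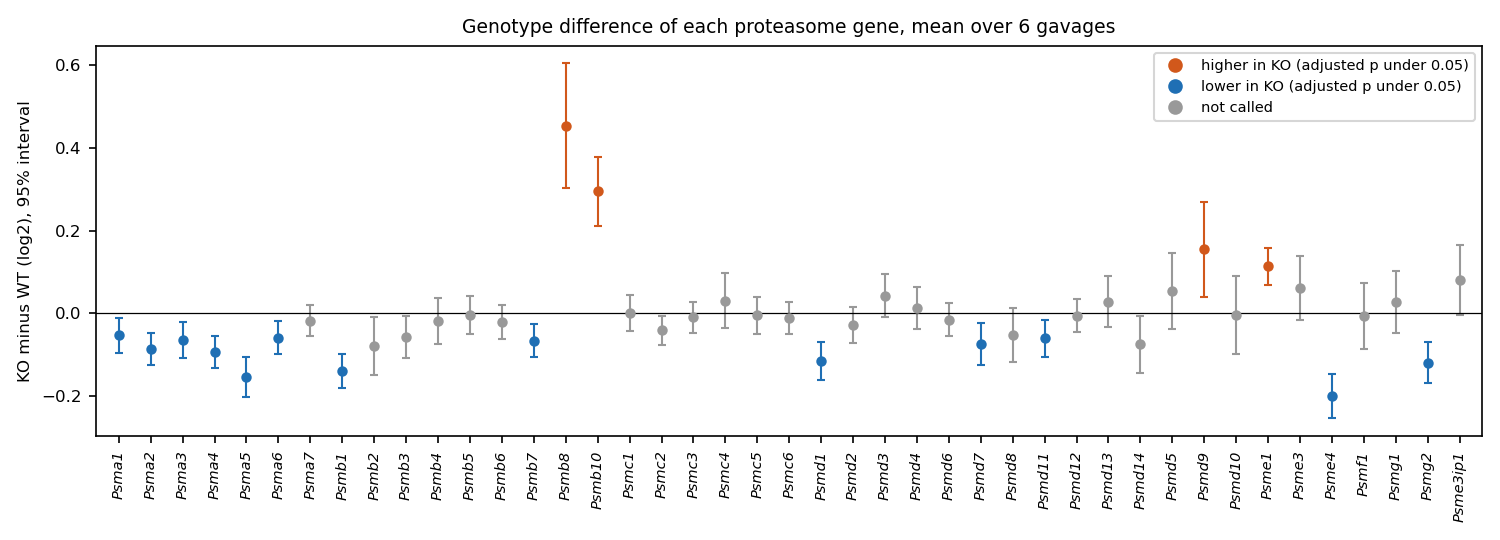
Knockout minus wild-type difference in log2 signal of each tested member, averaged over the 6 gavages, with its 95% interval from the fit. Blue marks the 13 members lower in knockout hearts at an adjusted p under 0.05, orange the 4 that were higher and grey the rest; all 7 alpha subunits lie below 0, and Psmb8 and Psmb10 stand highest.

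Of the 7 alpha subunits tested, 6 fell in knockout hearts (Psma1 to Psma6), and all 7 differences were below 0, with a median of -0.06. Psma5 changed most. Its signal was 9.30 to 9.65 (median 9.50) in the 25 wild-type arrays and 9.16 to 9.50 (median 9.36) in the 30 knockout arrays, and 6 knockout arrays lay below the lowest wild-type array. The ranges overlapped, and the knockout mean was lower in each of the 6 gavages, by -0.12 to -0.21. The averaged difference was -0.15 ± 0.02 (SE; adjusted p = 7.24e-07, limma). The second bright probe set of Psma5 gave -0.14. Psma7 was at -0.02 (adjusted p = 0.481, limma). Psma8, the alpha subunit of the testis, was below the minimum in every array.

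Of the 7 constitutive beta subunits, 2 fell, namely Psmb1 and Psmb7, and all 7 differences were below 0. Psmb1, a structural subunit without a protease site, was 9.80 to 10.11 (median 9.96) in wild-type arrays and 9.68 to 9.97 (median 9.82) in knockout arrays. Of the 30 knockout arrays, 11 lay below every wild-type array. The difference was -0.14 ± 0.02 (adjusted p = 2.97e-07, limma), with the knockout mean lower in each of the 6 gavages. Psmb7, which carries the trypsin-like site, differed by -0.07 ± 0.02 (adjusted p = 0.00591, limma). Psmb5, with the chymotrypsin-like site, differed by -0.004 (95% interval -0.05 to 0.04; adjusted p = 0.910) and Psmb6, with the caspase-like site, by -0.02 (-0.06 to 0.02; adjusted p = 0.438). These genes are the constitutive counterparts of Psmb8 (for Psmb5), Psmb9 (for Psmb6) and Psmb10 (for Psmb7).

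Both tested inducible subunits rose. Psmb8, which replaces Psmb5 in the immunoproteasome, was 5.19 to 5.83 (median 5.50) in the 25 wild-type arrays and 4.90 to 6.69 (median 5.94) in the 30 knockout arrays. Of the knockout arrays, 22 lay above the highest wild-type array, while 1, after tridocosahexaenoin, lay below the lowest. The difference was 0.45 ± 0.07 (adjusted p = 2.64e-06, limma), a fold of 1.37. It ran from 0.33 after trilinolenin to 0.63 after triolein and was above 0 in all 6 gavages. In the control groups the wild-type arrays read 5.60, 5.52 and 5.50 and the knockout arrays 5.89, 5.94, 5.98, 5.68 and 5.98, without overlap. Knockout arrays spread more widely (SD 0.350, n = 30) than wild-type arrays (SD 0.160, n = 25).

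Psmb10, which replaces Psmb7, was 7.24 to 7.89 (median 7.51) in wild-type arrays and 7.39 to 8.18 (median 7.84) in knockout arrays. The ranges overlapped, and 8 knockout arrays lay above every wild-type array. The difference was 0.29 ± 0.04 (adjusted p = 1.09e-07, limma), from 0.15 in the control groups to 0.44 after Wy14643. Psmb9, the third inducible subunit, passed the minimum in 1 array only. Its dim signal had a median of 3.07 and a highest value of 3.49 in wild-type arrays, against 3.41 and 4.61 in knockout arrays. In a fit without the minimum, Psmb9 differed by 0.41 ± 0.09 (adjusted p = 0.000884 over 18194 genes, limma). Psmb11, a subunit of the thymus, was below the minimum in all arrays.

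The 6 ATPases of the 19S particle all missed the threshold, with differences from -0.04 (Psmc2, adjusted p = 0.0563) to 0.03 (Psmc4). For Psmc6 the probe set used gave -0.01, while its other bright probe sets gave -0.07 and -0.11. Of the 11 other 19S subunits, 3 fell. Psmd1, a large scaffold subunit of the base that binds ubiquitin receptors, was 9.57 to 9.83 (median 9.72) in wild-type arrays and 9.38 to 9.73 (median 9.61) in knockout arrays. Of the knockout arrays, 8 lay below every wild-type array, and Psmd1 differed by -0.11 ± 0.02 (adjusted p = 5.50e-05, limma). The lid subunits Psmd7 and Psmd11 differed by -0.07 and -0.06. The ubiquitin receptor Psmd4 differed by 0.01 (adjusted p = 0.714) and the deubiquitinase Psmd14 by -0.08 (adjusted p = 0.0755).

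The activators moved in opposite directions. Psme4 encodes PA200, an activator that opens the core without ubiquitin. It was 10.93 to 11.37 (median 11.17) in wild-type arrays and 10.77 to 11.16 (median 10.97) in knockout arrays. With 12 of 30 knockout arrays below every wild-type array, it fell by 0.20 ± 0.03 on the log2 scale (adjusted p = 3.33e-08, limma), or 12.9%. This was the largest fall among the members called lower. Its mean was lower in the knockout in all 6 gavages, and its other bright probe sets gave -0.19 and -0.24.

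Psme1, the PA28 alpha subunit, was 10.60 to 10.85 (median 10.75) in wild-type arrays and 10.65 to 10.98 (median 10.85) in knockout arrays. It was higher by 0.11 ± 0.02 (adjusted p = 4.51e-05, limma), with 15 of 30 knockout arrays above every wild-type array. Its partner Psme2 shares its probe set with Psme2b and was not analysed here. Psme3, the nuclear PA28 gamma, differed by 0.06 (adjusted p = 0.210), and the inhibitor Psmf1 by -0.01 (adjusted p = 0.915).

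Among the assembly chaperones, Psmg2, which helps to build the alpha ring, fell by 0.12 ± 0.02 on the log2 scale (adjusted p = 0.000110, limma). It was 8.73 to 9.03 (median 8.84) in wild-type arrays and 8.59 to 8.94 (median 8.73) in knockout arrays, and 14 of the 30 knockout arrays lay below every wild-type array. Its partner Psmg1 differed by 0.03 (adjusted p = 0.591). The 19S chaperone Psmd9 was higher by 0.16 ± 0.06 (adjusted p = 0.0269, limma). Its signal is close to the minimum, and it was above wild type in 5 of 6 gavages. Psmd5 and Psmd10, the other 19S chaperones tested, missed the threshold.

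**Figure D3:**
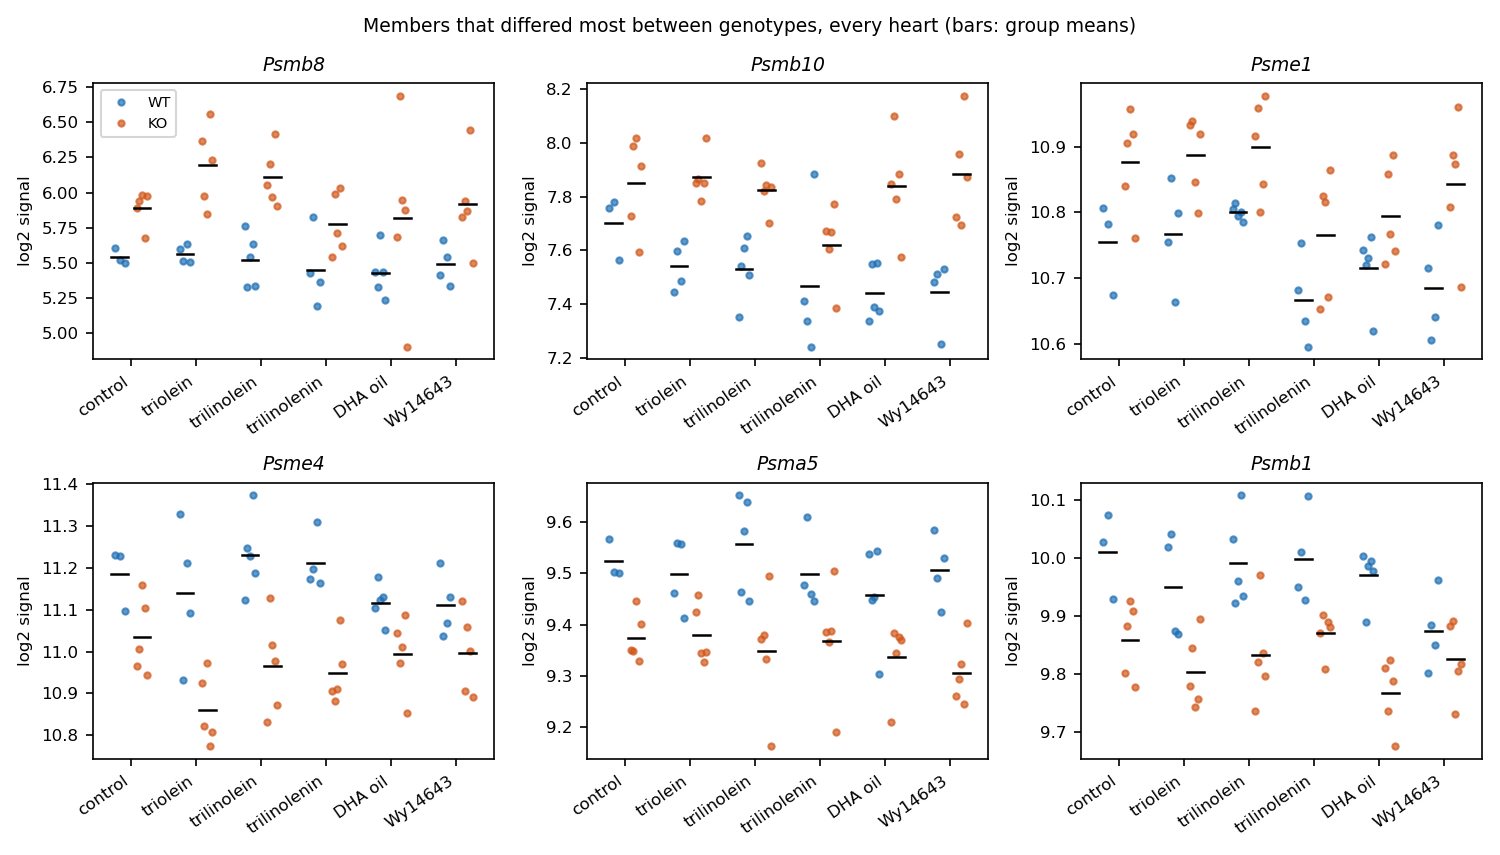
Log2 signal of 6 members in every heart, by gavage (DHA oil, tridocosahexaenoin), with wild type in blue, knockout in orange and black bars at the group means; the vertical scales differ between panels. Psmb8, Psmb10 and Psme1 have higher knockout means, and Psme4, Psma5 and Psmb1 lower ones, in each of the 6 gavages.

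In the control groups alone, with 3 against 5 hearts, no member was called by limma, against 3.62% of all genes. At an unadjusted p under 0.05 there were 8 members, 1 higher and 7 lower, against 13.1% of all genes (6.93% higher and 6.2% lower). The lowest unadjusted p among the lower members was that of Psmd1 (-0.19 ± 0.06, adjusted p = 0.0623), which passed the threshold in a fit without knockout control replicate 3 (-0.23). The lowest among the higher members was that of Psme1 (0.12 ± 0.06, adjusted p = 0.357).

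Other genes of the pathway were read from lists. Of 11 tested partners and regulators outside the symbol rule, 4 fell and 1 rose in knockout hearts when averaged over the gavages. Of all genes, 16.1% fell and 22.9% rose in this comparison. The total among the partners is close to the 39% of all genes called in either direction. Nfe2l1, the transcription factor that raises proteasome genes when proteasome activity falls short, was 8.46 to 9.25 (median 8.89) in wild-type arrays and 8.10 to 8.65 (median 8.35) in knockout arrays. Nfe2l1 fell by 0.51 ± 0.04 on the log2 scale (adjusted p = 2.54e-14, limma), on its 1 probe set. In the control groups it read 8.77, 9.25 and 8.89 in wild-type and 8.60, 8.44, 8.56, 8.20 and 8.41 in knockout arrays. These do not overlap, and the difference was -0.53 ± 0.11 (adjusted p = 0.00171). The proteasome-bound thioredoxin Txnl1 (-0.14) and the zinc-finger protein Zfand5 (-0.10) also fell, while Sem1, a small subunit of the lid, rose (0.14).

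Of 11 tested genes of ubiquitin supply and delivery to the proteasome, 3 fell and 1 rose, against 16.1% and 22.9% of all genes. Their total is again close to the 39% of all genes called in either direction. The ATPase Vcp, which extracts ubiquitinated proteins, fell by 0.14 on the log2 scale, as did its cofactor Ufd1 (-0.15) and the activating enzyme Uba6 (-0.23), and the chaperone Bag6 rose (0.15).

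Immune genes that share interferon control with Psmb8, Psmb10 and Psme1 were higher in the same hearts. Their counts stand against 22.9% of all genes called higher and 16.1% called lower in this comparison. Of 13 tested genes of antigen presentation and interferon signalling, 8 rose in limma, with the MHC class I genes H2-K1 (0.79 ± 0.09) and H2-D1 (0.49 ± 0.06), their light chain B2m (0.53 ± 0.07) and the interferon factor Irf9 (0.79 ± 0.07) changing most. Of 14 tested interferon-response genes, 13 rose, with a median difference of 0.82 against 0.02 over all genes and a highest difference of 1.86 (Ifit1). Ifit1 was at most 2.62 in wild-type arrays, below the minimum of 4.32 on the log2 scale. It was tested only through its knockout arrays (up to 6.16), so its rise adds nothing to this count. Whether other genes of the list passed the minimum in the same way was not checked. Macrophage markers moved with genotype too, since 8 of 10 were higher and 1 (Lyz2) was lower in knockout hearts. Their summed level was 10.93 to 11.49 (median 11.08) in wild-type and 10.95 to 11.46 (median 11.22) in knockout arrays. Of 9 lymphocyte markers on the array, 1 passed the minimum and it was not called. The summed macrophage level of each array was then used as a covariate, chosen after seeing the data. With it Psmb8 differed by 0.33 (0.45 without it), Psmb10 by 0.29 (0.29) and Psme1 by 0.11 (0.11), each past the threshold. The medians of this covariate themselves differ between genotypes, and the part of macrophages in these rises was not tested.

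Some markers of other heart cells were called too, in a comparison that called 39% of all genes. Of 9 endothelial markers, 2 were higher (Cldn5, by 0.73, and Kdr, by 0.66) and 2 lower (Tek, at -0.16, and Pecam1, at -0.10), and their summed level was 10.92 to 11.28 (median 11.11) in wild-type and 10.96 to 11.38 (median 11.16) in knockout arrays. Of 8 fibroblast markers, 1 was higher (Postn, by 0.28) and 4 were lower, from -0.07 (Dcn) to -0.23 (Tcf21), with a summed level of 12.50 to 12.95 (median 12.69) in wild-type and 12.42 to 12.76 (median 12.65) in knockout arrays. Of 9 cardiomyocyte markers 2 were higher, of 5 smooth muscle markers 2 were higher, and of 4 atrial muscle markers none was called. Cidea, the brown adipocyte marker tested, was at -0.77. The part of these cell types in the members' differences was not tested.

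Within groups, the level of Psmb8 followed these genes to some degree. Over the 55 arrays, as deviations from the group means, Psmb8 correlated with the summed macrophage markers at r = 0.47 (permutation p = 0.00315, adjusted p = 0.0252 over 8 relations) and rho = 0.37 (permutation p = 0.0161, adjusted p = 0.0322). Without the 2 arrays farthest from the median, r was 0.37, and it was 0.47 within wild-type and 0.51 within knockout arrays. With the interferon-response genes, r was 0.40 (permutation p = 0.0375, adjusted p = 0.0750) and rho was 0.43 (permutation p = 0.00654, adjusted p = 0.0262), and r was 0.24 without the 2 farthest arrays. For Psmb10, r was 0.06 with macrophage markers (permutation p = 0.781, adjusted p = 0.960) and 0.03 with interferon-response genes (permutation p = 0.840, adjusted p = 0.960), and rho was 0.06 and 0.05. These pooled values hide opposite signs for the macrophage markers, with which r of Psmb10 was -0.42 within wild-type and 0.48 within knockout arrays. The difference between the genotypes was not tested. With the interferon-response genes r was -0.07 and 0.06. For Psme1, r was -0.003 with macrophage markers (permutation p = 0.985, adjusted p = 0.985) and 0.27 with interferon-response genes (permutation p = 0.117, adjusted p = 0.187). For the dim Psmb9, r was 0.40 with macrophage markers (permutation p = 0.00867, adjusted p = 0.0347). With interferon-response genes r of Psmb9 was 0.43 (permutation p = 0.0212, adjusted p = 0.0565), or 0.29 without the 2 farthest arrays.

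RNA quality was compared between genotypes as well, and the labels give an RNA integrity number above 8. The difference between the 3′ and 5′ control probe sets of Actb, which grows as RNA breaks down, had a median of 0.69 in wild-type and 0.76 in knockout arrays. Its ranges overlapped (0.47 to 0.87 and 0.65 to 1.00). The same difference for Gapdh had medians of -0.17 and -0.16, with ranges of -0.23 to -0.11 and -0.22 to -0.09. With the Actb difference as a covariate, also chosen after seeing the data, 14 members were called, all of them among the 17. Psmb8 differed by 0.52, Psme4 by -0.21 and Psma5 by -0.16, all past the threshold, while Psmb7 (adjusted p = 0.0503) and Psmd9 (adjusted p = 0.120) were not. The Actb measure differed between gavages too. Its group means were 0.79 (control), 0.69 (triolein), 0.64 (trilinolein), 0.59 (trilinolenin), 0.69 (tridocosahexaenoin) and 0.71 (Wy14643) in wild-type hearts. In knockout hearts they were 0.80, 0.78, 0.73, 0.70, 0.80 and 0.82 in that order, so that trilinolenin was lowest in both genotypes.

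The promoters shown belong to members called between genotypes. Those of Psmb8, Psme1 and Psme4 each hold a response element that was searched for. That of Psmb10, the other inducible subunit called higher, holds none. Psmd9, also called higher, holds elements too and is not shown. RefSeq (GRCm38.p6) gave a window of 250 bases before to 50 after the start for 41 of the 49 genes. The searches, on both strands, were for the interferon-stimulated response element (GAAA, any 2 bases, then GAAA), the gamma-activated site of interferon gamma (TTCNNNGAA) and the antioxidant response element (TGACNNNGC), which is bound by the factor family that includes Nfe2l1 and NRF2. The interferon-stimulated element was in 5 of 41 members' windows (12.2%, against 3.99% of 27025 genes), namely Psmb3, Psmd4, Psmd9, Psme1 and Psmg4. The gamma-activated site was in 3 (7.32%, against 9.55%), namely Psmb8, Psmd2 and Psmg1. The antioxidant element was in 6 (14.6%, against 14.0%), namely Psmb5, Psmb6, Psmc6, Psmd9, Psmd12 and Psme4. It was in 1 of 9 windows of members called lower in knockout hearts (11.1%) and in 1 of 4 windows of members called higher. None of the 7 tested alpha subunits' windows held any of the elements. The lines below run 5′ to 3′ from 250 bases before the start to 25 after it. Capitals mark the gamma-activated site in Psmb8 (chr17:34197945-34198219, plus strand), the interferon-stimulated element on the opposite strand in Psme1 (chr14:55578244-55578518, plus strand) and the antioxidant element on the opposite strand in Psme4 (chr11:30771525-30771799, plus strand). Psmb10 (chr8:105938368-105938642, minus strand) has no capitals.
Psmb8: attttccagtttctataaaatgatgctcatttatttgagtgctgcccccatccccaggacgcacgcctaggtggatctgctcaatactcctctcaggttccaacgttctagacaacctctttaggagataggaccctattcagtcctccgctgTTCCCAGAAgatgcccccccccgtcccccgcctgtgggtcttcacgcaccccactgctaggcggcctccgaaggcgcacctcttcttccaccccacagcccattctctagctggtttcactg
Psme1: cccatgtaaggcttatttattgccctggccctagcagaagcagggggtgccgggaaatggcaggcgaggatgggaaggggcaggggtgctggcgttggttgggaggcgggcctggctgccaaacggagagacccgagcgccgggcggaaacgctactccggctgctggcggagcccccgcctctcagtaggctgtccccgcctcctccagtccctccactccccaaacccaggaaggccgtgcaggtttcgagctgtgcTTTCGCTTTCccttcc
Psme4: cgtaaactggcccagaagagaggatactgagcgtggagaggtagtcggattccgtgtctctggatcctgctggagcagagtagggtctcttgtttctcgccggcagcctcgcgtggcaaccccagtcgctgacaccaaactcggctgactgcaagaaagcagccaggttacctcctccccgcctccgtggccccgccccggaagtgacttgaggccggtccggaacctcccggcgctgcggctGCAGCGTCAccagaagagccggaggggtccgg
Psmb10: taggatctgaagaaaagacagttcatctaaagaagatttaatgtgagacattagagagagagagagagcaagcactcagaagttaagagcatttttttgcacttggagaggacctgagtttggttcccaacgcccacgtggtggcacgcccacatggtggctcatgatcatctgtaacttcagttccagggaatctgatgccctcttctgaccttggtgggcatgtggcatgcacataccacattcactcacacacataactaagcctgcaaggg
The match in Psmb8 begins 97 bases before the start, that in Psme4 7 bases before it and that in Psme1 10 bases after it. Psmb8, Psmb10 and Psme1 rose in knockout hearts, as given above, and Psme4 fell. A match is a description of the letters, and binding was not measured. A relation between matches and the direction of change was not tested.

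The next comparisons asked whether a gavage changed proteasome genes within 6 h. Against the control gavage, in wild-type hearts, limma called no member after any of the 5 gavages. The shares of all genes called were 0.0728% for triolein, 1.25% for trilinolein, 3.41% for trilinolenin, 1.86% for tridocosahexaenoin and 0.0607% for Wy14643. At an unadjusted p under 0.05 there were 4, 3, 0, 1 and 4 members in that order, of 43, against 6.40%, 12.6%, 16.7%, 14.8% and 7.45% of all genes. Each gavage is given here by the member of lowest unadjusted p in each direction. The lowest after triolein was that of Psma3 (-0.16 ± 0.06, adjusted p = 0.619) and after Wy14643 that of Psmd6 (-0.14 ± 0.06, adjusted p = 0.552). After trilinolein it was that of Psmd10 (0.27 ± 0.13, adjusted p = 0.350), and after trilinolenin and tridocosahexaenoin that of Psmb10 (-0.23 ± 0.12, adjusted p = 0.303, and -0.26 ± 0.11, adjusted p = 0.244). In the opposite direction these were Psmb3 after triolein (0.10), Psmg2 after Wy14643 (0.09), Psmc3 after trilinolein (-0.08), Psmd10 after trilinolenin (0.21) and Psma6 after tridocosahexaenoin (0.06). None of these adjusted p-values was under 0.05.

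After Wy14643, 6 of 43 members (14%) were above the control in wild-type hearts and 37 were below it, with a median of -0.07, while 44.1% of all genes were above, with a median of -0.02. A lean below the wild-type control was not particular to Wy14643. Of the members, 20.9% were above it after triolein, 53.5% after trilinolein, 44.2% after trilinolenin and 23.3% after tridocosahexaenoin. Of all genes, 41.4%, 46.8%, 42.6% and 41.4% were above it in that order. These comparisons share the 3 wild-type control hearts. In knockout hearts given Wy14643, 28 of 43 members were below the control, with a median of -0.03. Limma called no member there either, against 0.0728% of all genes. At an unadjusted p under 0.05 there were 6 members and 9.88% of all genes, led by Psme3ip1 (-0.28 ± 0.10, adjusted p = 0.277) and Psmd4 (0.14 ± 0.06, adjusted p = 0.386). The test of the difference between genotypes in the response to Wy14643 called no member and no gene in limma. At an unadjusted p under 0.05 there was 1 member, Psmd4 (0.24 ± 0.09), and 4.39% of all genes. The lowest unadjusted p in the other direction was that of Psme3ip1 (-0.30 ± 0.15).

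**Figure D4:**
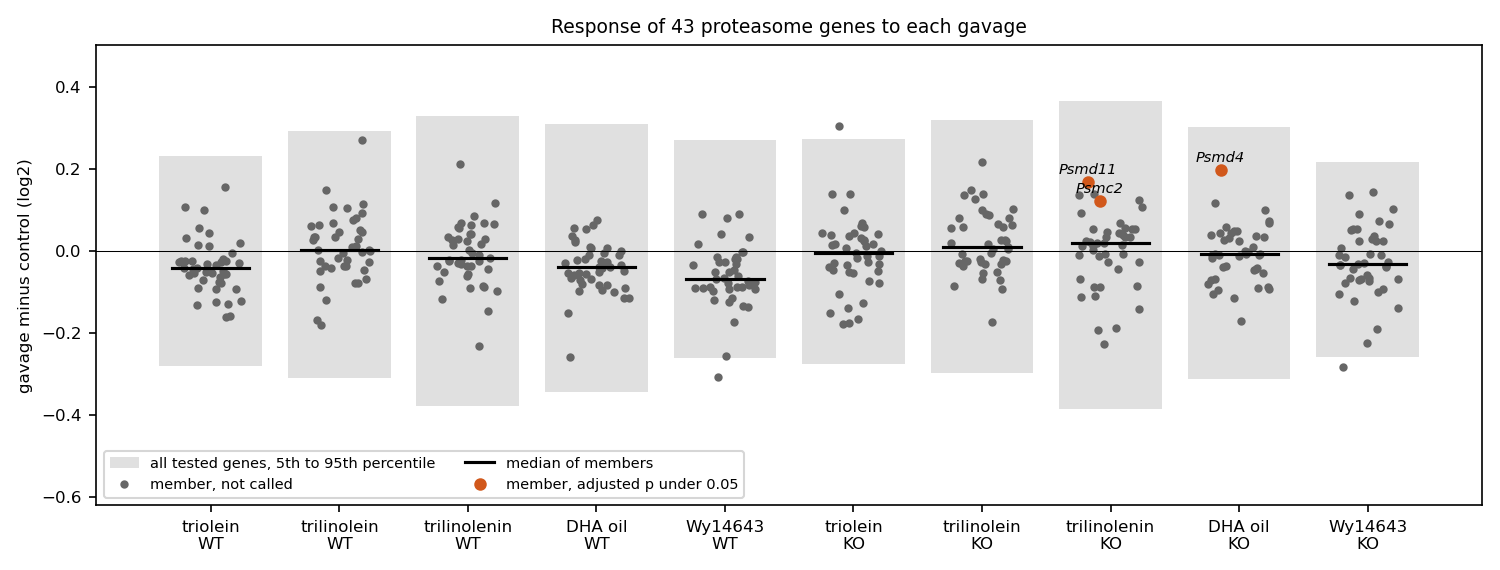
Log2 difference from the control gavage of each of the 43 members (points, spread sideways at random), with the members' median as a black bar and the 5th to 95th percentile of all tested genes as a grey band, for 5 gavages in each genotype (DHA oil, tridocosahexaenoin). The named orange points are the 3 calls at an adjusted p under 0.05, all in knockout hearts; most members lie well inside the grey bands.

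In knockout hearts 3 rises were called, all of 19S subunits, in comparisons that share the 5 control hearts. After trilinolenin, 2 members were called, both higher, against 11.9% of all genes (4.65% higher). Psmd11 read 10.07, 10.15, 10.13, 9.95 and 10.10 in the control and 10.24, 10.28, 10.19, 10.20 and 10.34 after trilinolenin. The groups did not overlap, and Psmd11 rose by 0.17 ± 0.05 (adjusted p = 0.0270, limma). The ATPase Psmc2 read 11.46, 11.39, 11.40, 11.35 and 11.48 in the control and 11.58, 11.51, 11.48, 11.53 and 11.58 after trilinolenin. These groups meet at 11.48 without overlap, and Psmc2 rose by 0.12 ± 0.04 (adjusted p = 0.0441, limma). After tridocosahexaenoin, 1 member was called, against 3.54% of all genes. Psmd4, the ubiquitin receptor, read 9.84, 9.89, 9.85, 9.74 and 9.92 in the control and 10.09, 10.02, 9.95, 10.06 and 10.09 after tridocosahexaenoin, without overlap, and rose by 0.20 ± 0.06 (adjusted p = 0.0452, limma).

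These calls rest on few arrays, and the knockout control mean was the lowest of the 12 groups for each of Psmd11, Psmc2 and Psmd4. Leaving out 1 array of the groups compared ended the call of Psmd4 in 8 of 10 cases, of Psmc2 in 7 and of Psmd11 in 4. Without knockout control replicate 4, the lowest control for each of the 3 genes, the differences were 0.14 (Psmd11), 0.11 (Psmc2) and 0.17 (Psmd4), and none was called. In wild-type hearts, Psmd11 differed by 0.07 (adjusted p = 0.665) and Psmc2 by 0.07 (adjusted p = 0.529) after trilinolenin, and Psmd4 by -0.04 (adjusted p = 0.864) after tridocosahexaenoin. The second probe set of Psmd4 gave 0.06 in knockout hearts after tridocosahexaenoin. With the Actb measure as a covariate, Psmd11 differed by 0.20 (adjusted p = 0.0113) and Psmd4 by 0.19 (adjusted p = 0.0390), while Psmc2 missed the threshold (0.12, adjusted p = 0.0582, limma).

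Triolein and trilinolein in knockout hearts gave no call among the members in limma, against 1.15% and 4.32% of all genes, with 3 and 4 members at an unadjusted p under 0.05 against 14.7% and 17.4% of all genes. After triolein the lowest unadjusted p were those of Psme4 (-0.18 ± 0.06, adjusted p = 0.149) and Psmd4 (0.14 ± 0.06, adjusted p = 0.245). After trilinolein they were those of Psmd11 (0.15 ± 0.05) and Psme3ip1 (-0.17 ± 0.10, adjusted p = 0.361). Without knockout replicate 2 of the trilinolein group, Psmd11 was called after trilinolein (0.18). Averaged over the 4 oils and both genotypes, no member was called in limma, while 14.6% of all genes were. At an unadjusted p under 0.05 there were 3 members against 27.2% of all genes, and the lowest p in each direction were those of Psmb5 (-0.08 ± 0.03, adjusted p = 0.110) and Psmc2 (0.05 ± 0.03, adjusted p = 0.188). The median member moved by -0.01 and the median gene by -0.02, and the median size of the difference was 0.0286 for members and 0.0733 for all genes. The difference between genotypes in the response to the oils gave no call for any member or gene in limma, with 2 members and 4.01% of all genes at an unadjusted p under 0.05. The lowest p in each direction were those of Psmd4 (0.16 ± 0.07) and Psmd10 (-0.21 ± 0.14).

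Genes of the same pathway outside the rule changed after the oils in a few cases. Ngly1, the deglycosylase that activates the Nfe2l1 protein, rose in knockout hearts after triolein (0.21 ± 0.05, adjusted p = 0.0374), trilinolein (0.21 ± 0.05, adjusted p = 0.0157) and trilinolenin (0.26 ± 0.05, adjusted p = 0.00105, limma). These differences share the knockout control hearts, whose mean of 8.08 was the lowest of the 12 groups. The wild-type control was at 8.21, the wild-type oil groups were at 8.21 to 8.28, and Ngly1 was not called after any oil in wild-type hearts. In the mean of 4 oils and both genotypes Ngly1 rose by 0.12 and Zfand2a, a stress-induced proteasome partner, fell by 0.24 on the log2 scale, the only changes among 11 tested partners. Of 17 tested targets of the oxidative stress factor NRF2, 7 rose in that mean, against 5.51% of all genes, with Hmox1, a heme-degrading enzyme, at 1.72 ± 0.36 (adjusted p = 0.000694, limma). The mean hides a difference between oils, since Hmox1 was higher than after triolein by 2.11 with trilinolein, 2.96 with trilinolenin and 1.88 with tridocosahexaenoin, each past the threshold. Hmox1 was 5.45 in the control and 5.39 after triolein in wild-type hearts, and 5.38 and 5.39 in knockout hearts. After tridocosahexaenoin its mean was 8.12 in wild-type hearts (arrays 5.06 to 9.11) and 6.42 in knockout hearts (arrays 4.17 to 8.55). Hmox1 rose by 2.84 after trilinolenin and by 2.67 after tridocosahexaenoin in wild-type hearts, and by 2.23 after trilinolein and 3.04 after trilinolenin in knockout hearts.

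The oils of 18-carbon fatty acids differ by the number of double bonds, with 1 in triolein, 2 in trilinolein and 3 in trilinolenin, and tridocosahexaenoin holds 22-carbon chains with 6. They were given in equal volumes, and each was compared with triolein over both genotypes, 3 pairs in all, with p-values adjusted over all genes within a pair. Up to 4 proteasome genes were higher after a polyunsaturated oil of 18 carbons than after triolein. Trilinolein against triolein gave 1 call, higher (1.92% of all genes called), and trilinolenin against triolein gave 4, all higher (6.05% of all genes called, 2.97% higher). Tridocosahexaenoin gave none in limma (0.789% of all genes), with 3 members at an unadjusted p under 0.05 against 11.9% of all genes. These pairs share the triolein hearts.

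Psma3, an alpha subunit, was called in both pairs. After triolein it read 10.86, 10.73, 10.66 and 10.68 in wild-type and 10.74, 10.69, 10.78, 10.66 and 10.78 in knockout hearts. After trilinolein it read 10.88, 11.00, 10.90, 10.86 and 10.86 in wild-type and 10.82, 10.74, 10.92, 10.96 and 10.88 in knockout hearts. Most trilinolein hearts were above all triolein hearts of their genotype, with an overlap in the knockout. After trilinolenin it read 10.84, 10.93, 10.93 and 10.92 in wild-type and 10.93, 10.92, 10.85, 10.82 and 10.83 in knockout hearts. Psma3 was higher than after triolein by 0.15 ± 0.04 with trilinolein (adjusted p = 0.0136) and by 0.16 ± 0.04 with trilinolenin (adjusted p = 0.00669, limma). Against the control gavage, Psma3 was lower after triolein in wild-type hearts, as given above, without passing the threshold.

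Psmc2 was higher after trilinolenin than after triolein by 0.12 ± 0.03 (adjusted p = 0.0131), and its second probe set gave 0.12. Psmd11 was higher by 0.13 ± 0.04 (adjusted p = 0.0307) and the ATPase Psmc1 by 0.12 ± 0.04 (adjusted p = 0.0412, limma). Leaving out 1 array ended the call of Psmc1 in 12 of 18 cases and of Psmd11 in 7, and of Psma3 and Psmc2 in none. The count fell to 2 without any 1 of 6 arrays, which were wild-type trilinolenin replicate 2, wild-type triolein replicates 2 and 4, knockout trilinolenin replicates 2 and 5 and knockout triolein replicate 4. With the Actb measure as a covariate 3 of the 4 calls remained, and Psmc1 missed the threshold (0.13, adjusted p = 0.0577, limma). In the trilinolein pair Psma3 was called with that covariate too (0.16), and the count rose to 3 without wild-type triolein replicate 1. Across all members, 34 of 43 were higher after trilinolein than after triolein (79.1%, against 55% of all genes), 28 after trilinolenin (65.1%, against 46.5%) and 25 after tridocosahexaenoin (58.1%, against 48.5%). With tridocosahexaenoin, Psmc2 differed from triolein by 0.09 (adjusted p = 0.176) and Psmb8 by -0.26 (adjusted p = 0.414).

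**Figure D5:**
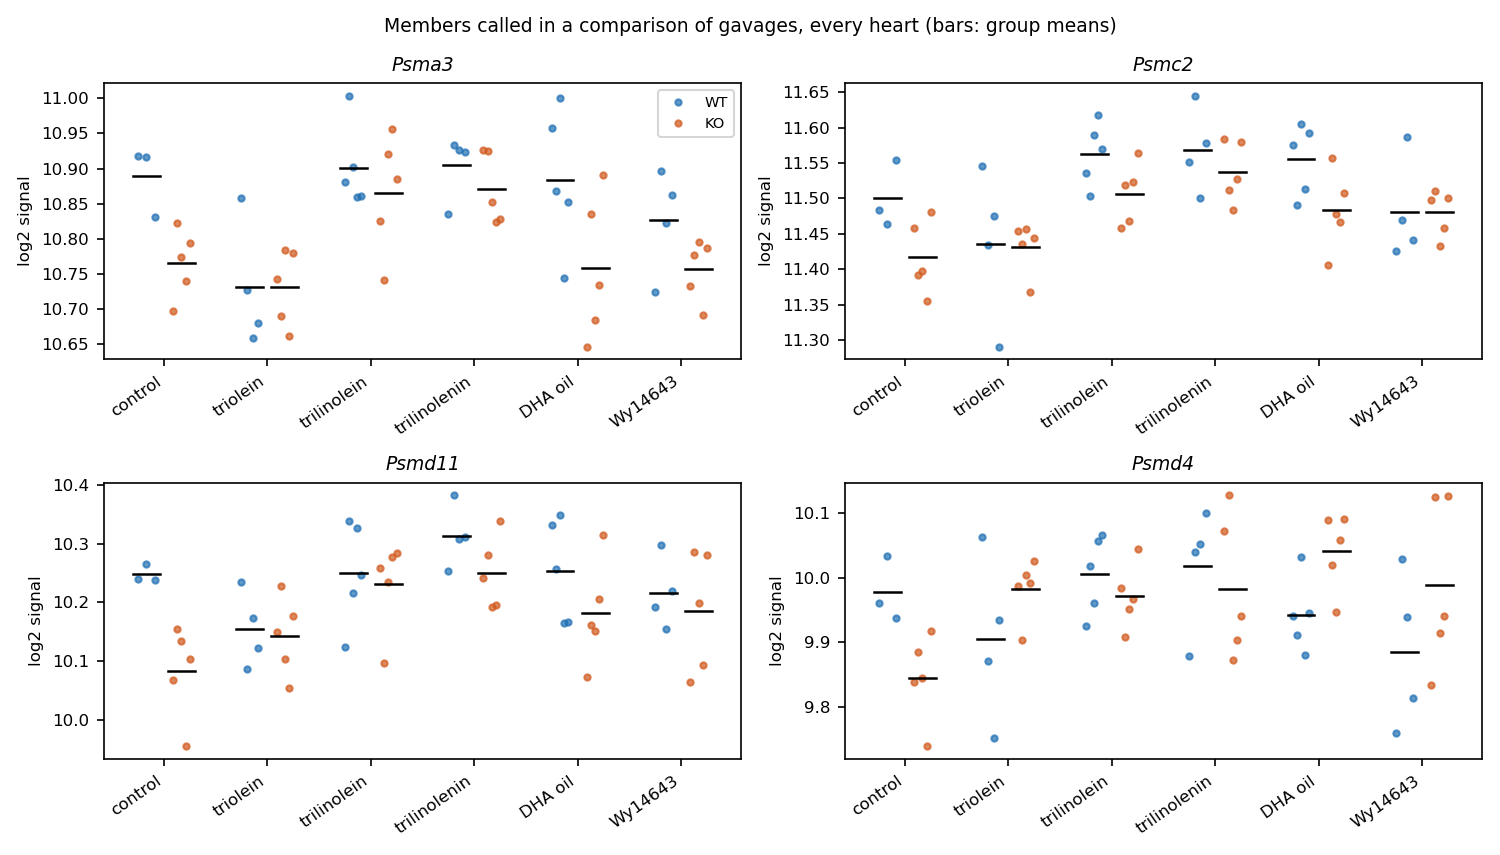
Log2 signal in every heart of 4 members called in a comparison of gavages, by gavage (DHA oil, tridocosahexaenoin), with wild type in blue, knockout in orange and black bars at the group means; the vertical scales differ between panels. Psma3 and Psmc2 are lower after triolein than after trilinolein and trilinolenin in both genotypes, and the knockout controls of Psmc2, Psmd11 and Psmd4 are the lowest groups of those genes.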

How the data were processed

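Hearts of 25 wild-type and 30 PPARα-/- mice were measured on 55 Affymetrix arrays of 45101 probe sets. The deposited values are log2 signals that the authors made with GCRMA 2.2.0, per the submitters' processing notes, and they were used as deposited. The method corrects background, normalises arrays by quantiles and summarises probes, so a change common to nearly all genes would be removed. For scanner settings and other upstream steps, the sources used here give nothing.

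Of the probe sets, 34958 carried 1 gene symbol, 932 several and 9211 none, and only the first kind was used. A gene was represented by its probe set of highest mean and tested where the linear signal passed 20 in 3 or more arrays (8238 of 18194 genes). All 12 groups were fitted together in limma 3.58.1 (R 4.3.3), with 43 residual degrees of freedom, and p-values were adjusted within each comparison by the Benjamini-Hochberg method, over all tested genes. Calls need an adjusted p under 0.05. The code was tested on simulated data.

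At most 5 called members in each direction were named per comparison, or else the member of lowest unadjusted p in each direction, besides the catalytic subunits in the genotype comparison. Of the other lists, at most 4 called genes were named. The members and lists were chosen with earlier results of these data known. The alternatives were other filters, probe sets, normalisation, array weights, variance priors, a replicate block, leaving out arrays and, chosen after seeing the data, Actb and macrophage covariates. Several ubiquitin genes and Psme2 were not analysed here because their probe sets do not carry 1 symbol. Psmc2, Psmb4, Psme4 and Psmd11 were read from probe sets of types that can bind related transcripts.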

Additional observations from a re-analysis of the deposited data

Results flagged for a closer look

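Of 121 groups of 4 or 5 arrays examined over 11 of the named members, 6 held an array whose distance from the others was above Dixon's 95% critical value, and chance flags about 1 in 20 groups. No explanation was weighed for them. Psma5 was 9.21 in knockout tridocosahexaenoin replicate 1, against 9.34 to 9.38 in the other arrays of its group. Psmb1 was 9.89 in wild-type tridocosahexaenoin replicate 2, against 9.98 to 10.00. Psmg2 was 8.98 in wild-type tridocosahexaenoin replicate 1, against 8.79 to 8.84. Psma3 was 10.84 in wild-type trilinolenin replicate 1, against 10.92 to 10.93. Psmc2 was 11.37 in knockout triolein replicate 4, against 11.44 to 11.46. Psmd11 was 10.10 in knockout trilinolein replicate 2, against 10.24 to 10.28, and without that array its rise after trilinolein was called (0.18).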

How the results depend on the processing

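The count of members that differed between genotypes over all gavages was 17, and it was 14 to 18 under 10 of 11 alternatives, with 13 to 17 of the calls shared. The exception was the second brightest probe set, with 11 calls among 35 tested members, 10 of them shared. No called value of a named gene changed sign under any of these alternatives. In the control groups alone the count was 0, and it was 1 with a minimum of 100, with quantile normalisation repeated and with a trended, robust prior, and 2 with the mean of all probe sets. For trilinolenin in the knockout the count was 2, and it was 0 with no filter, with the mean of probe sets, with the second probe set, without the 3 arrays of weight under 0.5 and in a fit of only the groups compared, 1 with the Actb measure as a covariate and 4 with array weights. For tridocosahexaenoin in the knockout the count was 1, and it was 0 under each of these alternatives, array weights included, other than the Actb covariate, with which it was 1. The mean of the 4 oils had 0 calls and 3, all lower, with array weights. Trilinolein against triolein had 1 call, 0 with the mean of probe sets, with the second probe set and with only the groups compared, and 2 with the minimum of 100 or the robust prior. Trilinolenin against triolein had 4 calls, 2 without a filter, 0 with the mean of probe sets, and 1 with the second probe set or only the groups compared. The causes of these changes were not tested.

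Leaving out 1 array at a time gave 16 to 19 calls between genotypes over all gavages, 0 to 1 in the control groups, 0 to 1 for the mean of the 4 oils (1 without wild-type control replicate 3), 0 to 1 for trilinolein in the knockout, 0 to 3 for trilinolenin and 0 to 1 for tridocosahexaenoin in the knockout, 1 to 3 for trilinolein and 2 to 4 for trilinolenin against triolein, and 0 in every other comparison. Some groups have 3 or 4 arrays, which limits what the fits can call.

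Samples of different groups share replicate numbers. With the replicate block the control groups had 1 call (Psmd1), and the count changed in no other comparison. Deviations from the group means correlated at 0.00991 on average between arrays of 1 number and at -0.00245 between others, and 12 of 55 arrays correlated best with their own number, so the numbers were not taken to pair the samples.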
